A study of Homo sapiens with 6 samples.

Results

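The genes described here are 10 feedback inhibitors of mitogen-activated protein kinase (MAPK) signalling: DUSP1, DUSP4, DUSP5, DUSP6, DUSP10, SPRY1, SPRY2, SPRY4, SPRED1 and SPRED2. They were chosen by symbol, with earlier results of these data known, and all 10 were found among the 28265 gene symbols of each deposited table. LN229, an established cell line from a human glioblastoma that was grown in serum here, was profiled by RNA sequencing in 3 libraries labelled TRIM25 knockdown and 3 labelled WT. According to the series design the first group are derivatives carrying a short hairpin RNA against TRIM25, which encodes a tripartite motif ubiquitin ligase. The sources used here do not say whether the WT cells carried a non-targeting hairpin, whether the derivatives are a pool or a clone, or whether libraries with the same label stem from separate cultures. The p-values therefore measure only the spread between these libraries, which may be technical.

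Growth factors that bind receptor tyrosine kinases switch on Ras, which activates the kinases Raf, MEK and ERK in turn, and ERK then induces genes that shut the pathway down again. DUSP genes encode phosphatases that strip the activating phosphates from MAP kinases, some acting on ERK and others mainly on the stress kinases JNK and p38. Sprouty (SPRY) proteins act upstream on the signal from receptors to Ras and Raf, and SPRED proteins bring the Ras inhibitor neurofibromin to the membrane. Because ERK induces many of these genes, their mRNA is often read as an output of the pathway, which is frequently active in glioblastoma.

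Promoters are shown for the gene with the largest fall and the 2 with the largest rises reported below, to let their sequence be read beside the values. RefSeq promoter entries (build GRCh38.p14, whereas the deposited tables were made on hg19) matched 8 of the 10 symbols with 13 start sites, and each window below holds the 250 bases before the most upstream of a gene's listed starts, 5′ to 3′ on the minus strand. The capitals mark matches, on either strand, to TGACG, the half-site of the cyclic AMP response element, whose full form is TGACGTCA and holds a half-site on each strand.
DUSP1, chr5:172771196-172771445: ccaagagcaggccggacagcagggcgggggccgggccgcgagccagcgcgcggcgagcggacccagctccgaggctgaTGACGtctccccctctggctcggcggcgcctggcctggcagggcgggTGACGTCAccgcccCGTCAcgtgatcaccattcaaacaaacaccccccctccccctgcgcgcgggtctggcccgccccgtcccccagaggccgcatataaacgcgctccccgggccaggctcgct
SPRY2, chr13:80341127-80341376: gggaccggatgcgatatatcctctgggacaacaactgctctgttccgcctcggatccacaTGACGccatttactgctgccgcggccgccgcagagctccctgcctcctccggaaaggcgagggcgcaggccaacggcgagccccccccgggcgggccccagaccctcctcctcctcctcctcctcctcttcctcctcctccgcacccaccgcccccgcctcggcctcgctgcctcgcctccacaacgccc
DUSP10, chr1:221742090-221742339: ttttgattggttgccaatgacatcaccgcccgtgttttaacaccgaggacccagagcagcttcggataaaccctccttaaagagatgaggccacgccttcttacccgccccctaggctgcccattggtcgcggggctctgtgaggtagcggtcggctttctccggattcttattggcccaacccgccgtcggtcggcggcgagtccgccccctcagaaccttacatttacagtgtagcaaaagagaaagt
The DUSP1 window held the full element 125 bases before the start and 4 half-sites in all, 2 of which lie within the full element. The SPRY2 window held 1 half-site 190 bases before the most upstream of 3 listed starts. The bases just after that start were not found in any SPRY2 transcript of GENCODE v29, and the window of the only SPRY2 start for which they were held no half-site. The DUSP10 window held none. Among all 35116 windows of the same length in the table, 21.2% held the half-site and 1.65% the full element, and among the 13 windows of the 10 genes the counts were 3 and 1. Neither the AP-1 motif TGACTCA, the CIC motifs TGAATGAA and TGAATGGA nor the CArG box bound by SRF was found in any of the 13 windows. The ETS motif CCGGAAG was found in 1 of them, at SPRY1, and in 8.52% of all windows. These are matches of letters only, and the counts do not show which start was used.

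Library totals lay between 11349865 and 16404725 counts in the group labelled TRIM25 knockdown and between 13763400 and 15868470 in the group labelled WT. TRIM25 itself goes against the label: it stood at 80.3, 80.0 and 88.5 CPM (counts relative to library sizes scaled by edgeR's TMM method) in the libraries labelled TRIM25 knockdown, against 35.3, 35.8 and 35.6 CPM in those labelled WT. On the log2 scale the difference was 1.22 ± 0.07 (SE; adjusted p = 3.23e-09, quasi-likelihood test of edgeR with Benjamini-Hochberg adjustment). Groups are therefore named by their labels, and no direction below can be read as an effect of losing TRIM25 mRNA. In bulk RNA, fewer cells expressing a gene and less of its RNA per cell cannot be told apart. The 8 astroglial and glioblastoma markers summed to 5829 to 6216 TPM (counts per length, rescaled to a fixed total, as the authors deposited them) in the libraries labelled TRIM25 knockdown and 6421 to 6624 TPM in those labelled WT. VIM, NES, S100B, SOX2 and CD44 had a mean of at least 125.2 TPM in both groups, OLIG2 had 5.40 TPM in the libraries labelled TRIM25 knockdown and 8.43 TPM in those labelled WT, and GFAP and CHI3L1 stayed at 8 counts or fewer in each library. In the libraries labelled TRIM25 knockdown SOX2, OLIG2 and S100B fell, with log2 fold changes of -0.66, -0.67 and -0.33 (edgeR adjusted p = 1.45e-06, 0.00482 and 0.000638), and NES rose by 0.27 on the log2 scale (0.000727). Of the defining markers of other cell types, AIF1 and KRT5 were at 0 counts in all libraries, and PTPRC, PECAM1, EPCAM and the neuronal RBFOX3 were at 9 counts or fewer. Other listed markers were expressed. The 6 immune cell markers, 5 of them with any count, summed to 99.3 to 117.7 TPM in the libraries labelled TRIM25 knockdown and 71.8 to 76.0 TPM in those labelled WT, nearly all of it from the lysosomal gene CD68 (mean 106.2 TPM in the libraries labelled TRIM25 knockdown and 72.9 TPM in those labelled WT). The 4 neuron markers summed to 68.2 to 74.7 TPM in the libraries labelled TRIM25 knockdown and 77.6 to 80.3 TPM in those labelled WT, from SYT1, SNAP25 and GAD1. These 3 did not move together. SNAP25 and GAD1 fell, with log2 fold changes of -0.38 and -0.35 (edgeR adjusted p = 0.00314 and 0.00149). SYT1 rose by 0.27 on the log2 scale (edgeR adjusted p = 0.0220), a call kept in 2 of the 6 fits that left out 1 library. The 4 epithelial markers summed to 2.61 to 3.44 TPM in the libraries labelled TRIM25 knockdown and 5.57 to 6.19 TPM in those labelled WT, mostly from KRT14, and the 4 endothelial markers stayed at or below 1.27 TPM. CD68 was called higher and KRT14 lower, with log2 fold changes of 0.49 and -1.04 (edgeR adjusted p = 0.000299 and 0.00200). The part of these markers in the results below was not tested.

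Of the 10 genes, all of which passed the filter on low counts, SPRY2, DUSP10, DUSP5 and SPRED2 rose in the libraries labelled TRIM25 knockdown and DUSP1 and DUSP6 fell. SPRY2 was 1.42-fold higher and DUSP1 1.48-fold lower, and no family moved as a whole. Thus 6 of 10 were called (edgeR adjusted p under 0.05 over all genes tested), where 23.3% of the 14315 tested genes were called. The split was 4 higher and 2 lower, against 12.2% and 11.0% of all tested genes. Without labelled WT replicate 1 or 2 or labelled knockdown replicate 3 the counts were 3 higher and 1 lower, since the DUSP5 and DUSP6 calls were both lost. They were 4 higher and 1 lower without labelled knockdown replicate 2 or labelled WT replicate 3, where DUSP6 alone was lost, and 3 higher and 3 lower without labelled knockdown replicate 1, where DUSP5 was lost and SPRY1 was called. The median log2 fold change over the 10 genes was 0.03, and over all tested genes it was -0.0038. The median size of the difference, without its sign, was 0.35 on the log2 scale for the 10 genes and 0.15 for all tested genes. The CPM ranges of the 2 groups were apart for 6 of the 10 genes, 3 higher and 3 lower, against 37.3% of all tested genes.

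**Figure D1:**
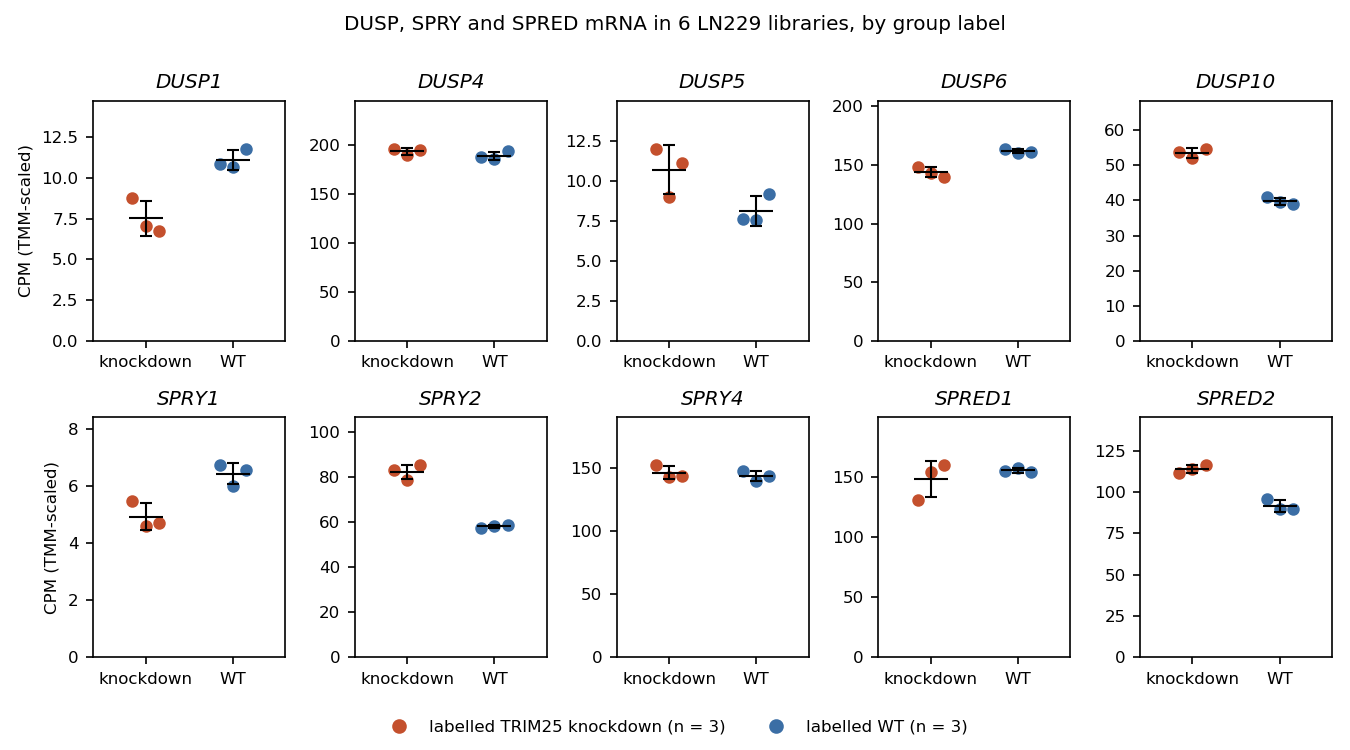
CPM of the 10 genes in each library (points), with the mean and SD of each group (bars, n = 3), the libraries labelled TRIM25 knockdown on the left and those labelled WT on the right of each panel; every axis starts at 0. The groups lie apart for SPRY2, DUSP10 and SPRED2, where the knockdown-labelled libraries are higher, and for DUSP1, DUSP6 and SPRY1, where they are lower.

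Among the phosphatases that act broadly on ERK, JNK and p38 in the nucleus, DUSP1 fell and DUSP4 did not pass. DUSP1, an immediate early gene induced by growth factors and stress, had 105, 80 and 110 reads or 8.75, 7.07 and 6.75 CPM in the libraries labelled TRIM25 knockdown, against 172, 147 and 186 reads or 10.8, 10.7 and 11.8 CPM in those labelled WT. Each knockdown-labelled library lay below each WT-labelled one. The log2 fold change was -0.57 ± 0.12 (SE; edgeR adjusted p = 0.00289), and it stayed called in each of the 6 fits that left out 1 library, with values from -0.68 to -0.48. DUSP4, also induced by ERK, had 195.8, 189.7 and 194.4 CPM in the libraries labelled TRIM25 knockdown, against 187.4, 185.7 and 193.7 CPM in those labelled WT. These groups overlapped, and the log2 fold change was 0.03 (95% interval -0.08 to 0.15).

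The phosphatases specific for ERK, nuclear DUSP5 and cytoplasmic DUSP6, were called in opposite directions, and both calls were lost in several other fits. DUSP5 had 12.0, 9.01 and 11.1 CPM in the libraries labelled TRIM25 knockdown, against 7.61, 7.54 and 9.17 CPM in those labelled WT. The groups overlapped, because the lowest knockdown-labelled library lay just under the highest WT-labelled one. Its log2 fold change was 0.40 ± 0.13 (SE; edgeR adjusted p = 0.0313). That call was lost without labelled knockdown replicate 1 (adjusted p = 0.0540) or 3 (0.0794), without labelled WT replicate 1 (0.0941) or 2 (0.127), and with DESeq2 (0.0887). DUSP6, the most abundant of the 10 per length, had 148.6, 143.2 and 140.0 CPM in the libraries labelled TRIM25 knockdown, against 163.7, 160.5 and 161.3 CPM in those labelled WT. All 3 knockdown-labelled values lay below the WT-labelled ones. The difference was small, with a log2 fold change of -0.17 ± 0.06 (SE; edgeR adjusted p = 0.0389). It remained called without labelled knockdown replicate 1, but adjusted p was 0.147 and 0.109 without labelled knockdown replicates 2 and 3 and 0.0886, 0.123 and 0.115 without labelled WT replicates 1, 2 and 3. It was also lost with DESeq2 (0.0577) and with no filter on low counts (0.0767). An antisense gene model shares 1875 bp of exon with DUSP6 in GENCODE v29. The library kit keeps strand, but whether the counting used it is not given in the sources used here.

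DUSP10, a phosphatase that acts mainly on JNK and p38, rose 1.34-fold. It had 53.7, 52.0 and 54.7 CPM in the libraries labelled TRIM25 knockdown, against 41.0, 39.5 and 39.0 CPM in those labelled WT. The gap between the groups was several times the spread within either, with an SD of 1.37 CPM in the libraries labelled TRIM25 knockdown and 0.991 CPM in those labelled WT. The log2 fold change was 0.43 ± 0.07 (SE; edgeR adjusted p = 0.00026), and it lay between 0.41 and 0.45 in all fits without 1 library, each of them called. DUSP10 and DUSP1 thus changed in opposite directions. The ratio of their TPM, the authors' values per length, was 4.51, 5.40 and 5.95 in the libraries labelled TRIM25 knockdown, against 2.78, 2.72 and 2.44 in those labelled WT.

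The Sprouty genes did not move together. SPRY2, an inhibitor of the signal from receptors to Ras, had the smallest p of the 10 genes. It stood at 83.1, 78.9 and 85.2 CPM in the libraries labelled TRIM25 knockdown, against 57.5, 58.2 and 58.7 CPM in those labelled WT. The lowest knockdown-labelled library lay well above the highest WT-labelled one. The log2 fold change was 0.50 ± 0.06 (SE; edgeR adjusted p = 2.87e-05) and ranged from 0.48 to 0.53 over the fits without 1 library, all of them called. SPRY4, the most abundant Sprouty gene, had 152.0, 142.8 and 143.8 CPM in the libraries labelled TRIM25 knockdown, against 147.9, 139.7 and 143.6 CPM in those labelled WT. The groups overlapped, and the log2 fold change was 0.02 (95% interval -0.10 to 0.15).

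SPRY1, the rarest of the 10, had 66, 52 and 77 reads or 5.50, 4.60 and 4.72 CPM in the libraries labelled TRIM25 knockdown, against 107, 83 and 104 reads or 6.73, 6.02 and 6.58 CPM in those labelled WT. Its groups did not overlap, but its log2 fold change of -0.39 ± 0.14 (SE) missed the threshold (edgeR adjusted p = 0.0514). It passed without labelled knockdown replicate 1 (adjusted p = 0.0250) and with offsets for gene length and GC content (0.0334). Per length, SPRY2 was 15.4, 17.5 and 18.3 times as abundant as SPRY1 in the libraries labelled TRIM25 knockdown, against 8.68, 9.83 and 9.07 times in those labelled WT. SPRY2 made up 44.3%, 44.7% and 46.4% of the summed SPRY1, SPRY2 and SPRY4 TPM in the libraries labelled TRIM25 knockdown, against 35.8%, 37.5% and 37.0% in those labelled WT.

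Of the SPRED genes, whose products carry neurofibromin to Ras, SPRED2 rose 1.24-fold and SPRED1 did not pass. SPRED2 had 111.4, 114.2 and 116.1 CPM in the libraries labelled TRIM25 knockdown, against 95.9, 89.5 and 89.5 CPM in those labelled WT. The groups lay apart, with a log2 fold change of 0.31 ± 0.06 (SE; edgeR adjusted p = 0.00142) that stayed called in all 6 fits without 1 library. SPRED1 had 131.2, 154.3 and 159.6 CPM in the libraries labelled TRIM25 knockdown, against 155.2, 157.7 and 154.0 CPM in those labelled WT. Labelled knockdown replicate 1 was low and the other 5 libraries lay close together. The difference was -0.07 on the log2 scale (95% interval -0.21 to 0.08), and without labelled knockdown replicate 1 it was 0.02. SPRED2 was 1.31, 1.14 and 1.12 times as abundant as SPRED1 per length in the libraries labelled TRIM25 knockdown, against 0.954, 0.877 and 0.898 times in those labelled WT. The order of the pair within each library thus differed by group. In the group labelled WT, however, the TPM ranges of SPRED1 and SPRED2 overlapped. NF1, which encodes neurofibromin, missed the threshold at a log2 fold change of 0.24 ± 0.09 (SE; edgeR adjusted p = 0.0511).

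**Figure D2:**
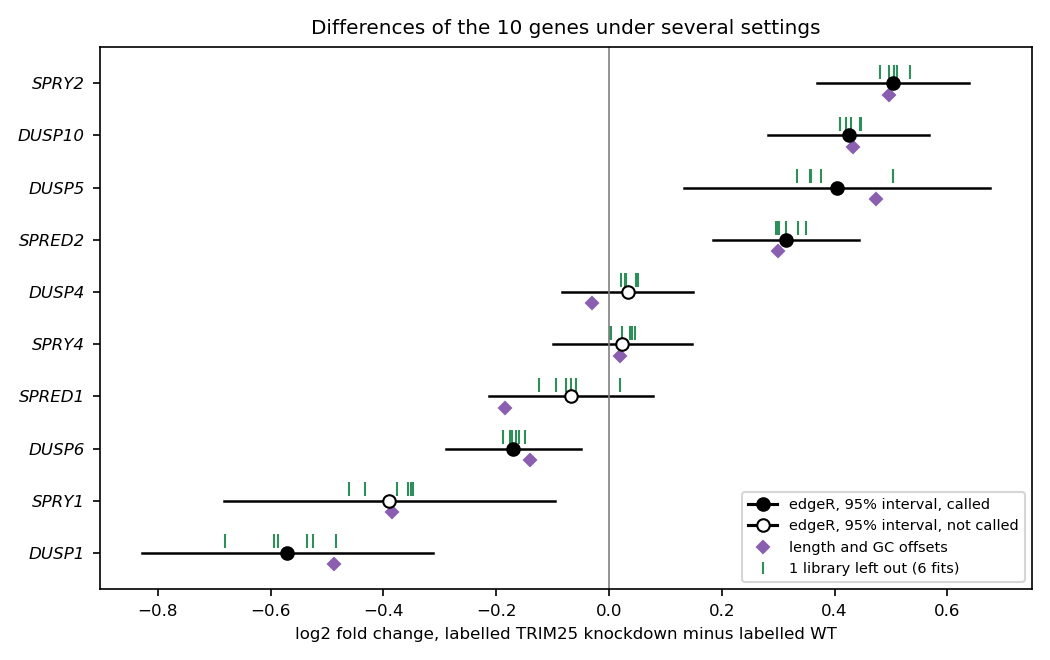
Log2 fold change (labelled TRIM25 knockdown minus labelled WT) of each gene from edgeR with its 95% interval, filled where called, with the value under length and GC offsets (diamonds) and in the 6 fits that left out 1 library (ticks). The fold changes of SPRY2, DUSP10, DUSP5, SPRED2 and SPRY4 stay to the right of 0 in every fit drawn, those of SPRY4 close to it. Those of DUSP1, DUSP6 and SPRY1 stay to the left, while DUSP4 and SPRED1 have values on both sides of 0.

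Differences across the whole table also followed gene length, so lengths are given beside the members. With tested genes in 5 bins of length, of the shortest bin (55 to 1941 bp) 3.32% were called higher and 16.1% lower, and the corresponding shares for the longest bin (6306 to 93098 bp) were 27.6% and 6.71%. DUSP1, DUSP5 and DUSP10 are 2012, 2475 and 2738 bp long and lie in the second bin, where 5.73% were higher and 13.0% lower. The rises of DUSP10 and DUSP5 thus ran against the direction more common among genes of their length, and the fall of DUSP1 ran with it. SPRY1, SPRY2 and DUSP6 (3520, 3464 and 3625 bp) lie in the middle bin, where 9.29% were higher and 10.9% lower.

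SPRED2 and SPRY4 (4708 and 5319 bp) lie in the next bin, where 15.3% were higher and 8.34% lower, and SPRED1 and DUSP4 (7270 and 7275 bp) in the longest. With per-library offsets for length and GC content, SPRY2, DUSP10, DUSP5 and SPRED2 stayed higher and DUSP1 and DUSP6 stayed lower. SPRY1 and SPRED1 were then also called lower, which made 4 lower in all, and the SPRED1 log2 fold change was -0.18 (edgeR adjusted p = 0.00161). Libraries of 1 label also differed among themselves by length. Across genes, which are not independent replicates, Spearman's rho of a library's deviation from its group mean with length was -0.38, 0.07 and 0.38 in labelled knockdown replicates 1, 2 and 3 and 0.41, -0.12 and -0.36 in labelled WT replicates 1, 2 and 3. In the same order of libraries SPRED1 stood at 131.2, 154.3 and 159.6 CPM in the group labelled TRIM25 knockdown. It stood at 155.2, 157.7 and 154.0 CPM in the group labelled WT. The part of this trend in the SPRED1 value was not tested beyond these fits.

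**Figure D3:**
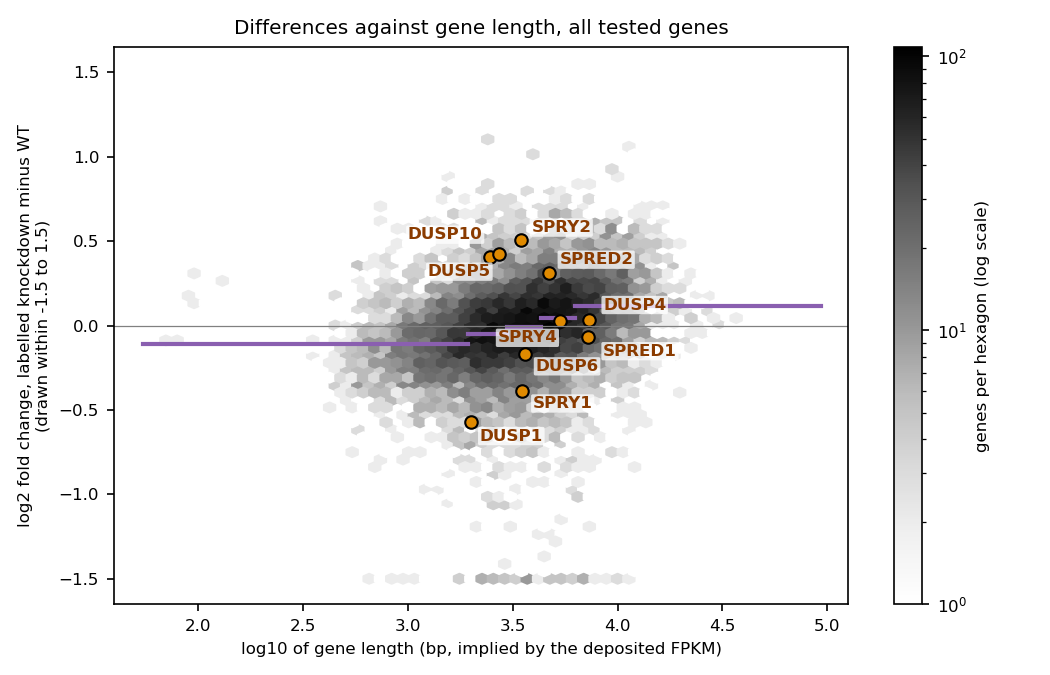
Log2 fold change (labelled TRIM25 knockdown minus labelled WT) against gene length on a log axis for all tested genes (grey hexagons), with the median of each of the 5 length bins (purple bars) and the 10 genes (orange points). The purple bars run from -0.11 in the shortest bin to 0.11 in the longest, and DUSP10, DUSP5 and SPRY2 sit well above the bar of their length while DUSP1 and SPRY1 sit well below it.

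Per length, the 10 genes spanned a wide range of levels. DUSP6 was the highest in both groups, at 113.7 ± 0.225 TPM in the libraries labelled TRIM25 knockdown and 123.6 ± 3.85 TPM in those labelled WT (SD, n = 3 each). It lay above 88.0% of tested genes in the libraries labelled TRIM25 knockdown and above 89.3% in those labelled WT. SPRY4 and DUSP4 followed in both groups, at 78.7 ± 1.23 and 76.1 ± 2.07 TPM in the libraries labelled TRIM25 knockdown and 74.8 ± 3.55 and 71.9 ± 1.52 TPM in those labelled WT. The ranges of SPRY4 and DUSP4 overlapped, so their order is not set. SPRY1 was the lowest, at 4.01 ± 0.297 TPM in the libraries labelled TRIM25 knockdown and 5.07 ± 0.361 TPM in those labelled WT.

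In between, the order differed by group. In the libraries labelled TRIM25 knockdown SPRED2 (69.4 ± 3.35 TPM), SPRY2 (68.2 ± 3.55 TPM), SPRED1 (58.6 ± 7.50 TPM) and DUSP10 (56.0 ± 2.35 TPM) came next, and neighbours overlapped except SPRY2 and SPRED1. In those labelled WT the order was SPRED1 (59.3 ± 1.48 TPM), SPRED2 (53.9 ± 3.32 TPM), SPRY2 (46.5 ± 0.518 TPM) and DUSP10 (40.3 ± 1.88 TPM), and SPRED1 and SPRED2 alone overlapped. DUSP5 (12.4 ± 1.65 TPM) and DUSP1 (10.7 ± 1.22 TPM) overlapped in the libraries labelled TRIM25 knockdown, whereas in those labelled WT DUSP1 (15.2 ± 0.675 TPM) lay above DUSP5 (9.06 ± 0.904 TPM). Summed over the 10 genes, the level was 535.3, 541.7 and 566.3 TPM in the libraries labelled TRIM25 knockdown, against 517.1, 489.5 and 492.4 TPM in those labelled WT. Most of that gap lay in the Sprouty and SPRED genes. The Sprouty sums were 150.5, 146.7 and 155.6 TPM in the libraries labelled TRIM25 knockdown, against 131.4, 123.1 and 124.7 TPM in those labelled WT. These ranges lay apart. The SPRED sums were 116, 131.0 and 136.9 TPM in the libraries labelled TRIM25 knockdown, against 118.3, 111.9 and 109.4 TPM in those labelled WT. These ranges overlapped. The 5 DUSP genes summed to 268.8, 264.0 and 273.7 TPM in the libraries labelled TRIM25 knockdown, against 267.4, 254.5 and 258.3 TPM in those labelled WT, and these ranges overlapped. The gaps between groups in all these sums depend on the scale. For each of the 10 genes, TPM put the group labelled TRIM25 knockdown higher relative to WT than CPM did. DUSP4, which did not pass, had means of 76.1 and 71.9 TPM in the groups labelled TRIM25 knockdown and WT. Its means by CPM were 193.3 and 188.9.

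**Figure D4:**
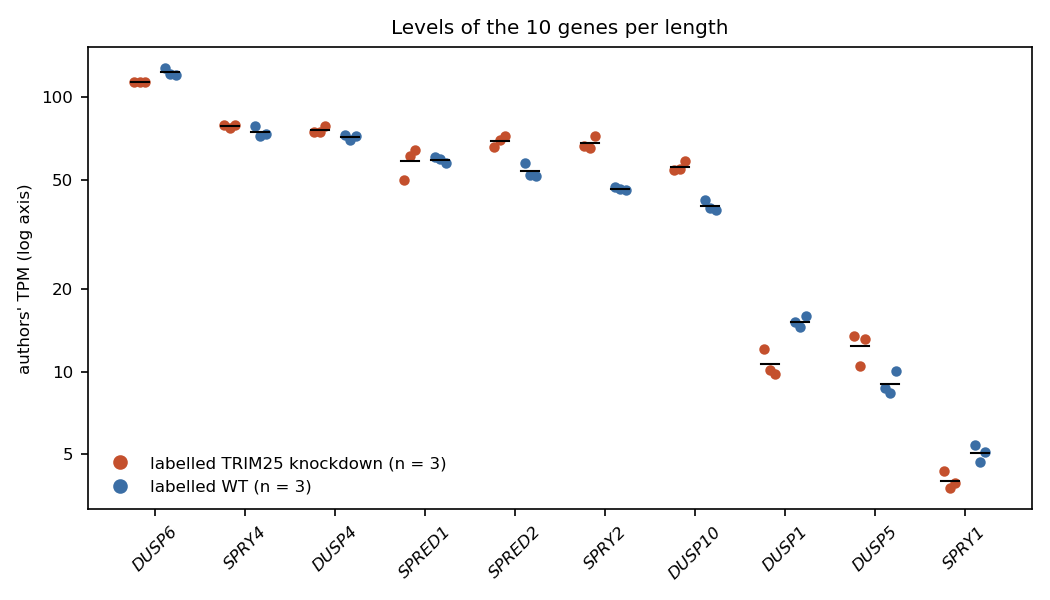
The authors' TPM of the 10 genes on a log axis, each point a library and each bar a group mean, with the libraries labelled TRIM25 knockdown left of those labelled WT. DUSP6 is the highest and SPRY1 the lowest in both groups, and SPRY2, SPRED2 and DUSP10 move up relative to SPRED1 in the libraries labelled TRIM25 knockdown.

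Replicate spread differed between the genes. The coefficient of variation within a group reached 14.3% for DUSP5 and for DUSP1 in the libraries labelled TRIM25 knockdown. Counting error alone, averaged over all 6 libraries of both groups, gives 8.86% and 9.05%. The coefficient was 10.2% for SPRED1 in the libraries labelled TRIM25 knockdown, beside 2.19% from counting error over all 6 libraries. By contrast SPRY2 varied by 3.86% in the libraries labelled TRIM25 knockdown and 1.06% in those labelled WT, and DUSP10 by 2.56% in the libraries labelled TRIM25 knockdown and 2.49% in those labelled WT. Over all 6 libraries counting error alone gives 3.23% for SPRY2 and 3.95% for DUSP10.

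The rest of the pathway was read from gene lists compiled from general knowledge. Their counts stand beside 12.2% of all tested genes called higher and 11.0% called lower. These shares take no account of gene length, although long genes more often rose and short ones more often fell. Among genes named below, the rises of RASAL2 (15321 bp) and MET (6995 bp) and the fall of PEBP1 (1431 bp) ran with this trend. The rises of FOSL1 (1838 bp) and CCN1 (2277 bp) and the fall of TGFA (4380 bp) ran against it. The part of length in the list counts and medians was not tested beyond the fits with length and GC offsets. Many of these counts moved when 1 library was left out, as given with each list. Among growth factor ligands 1 of 13 tested genes rose and 2 fell, with a median log2 fold change of -0.11 against -0.0038 for all tested genes. The EGFR ligand gene TGFA fell 1.30-fold, to a mean of 664.4 CPM in the libraries labelled TRIM25 knockdown against 863.8 CPM in those labelled WT (log2 fold change -0.38 ± 0.05, SE; edgeR adjusted p = 3.79e-05), and PDGFC, a platelet-derived growth factor gene, fell 1.29-fold. Of 15 receptor tyrosine kinase genes 2 rose and 2 fell (median -0.12). ERBB2, an EGFR partner, rose 1.36-fold and MET, the hepatocyte growth factor receptor, 1.28-fold. MERTK, named after its value was seen, fell to 0.272 ± 0.084 CPM in the libraries labelled TRIM25 knockdown, against 2.21 ± 0.230 CPM in those labelled WT (SD, n = 3 each). The ligand called higher was lost with DESeq2, with length and GC offsets and without any 1 library other than labelled knockdown replicate 1 (3 called higher) or labelled WT replicate 3 (2), and 3 were called higher with no low-count filter. Receptor genes called lower numbered 4 without labelled knockdown replicate 1, 1 without labelled knockdown replicate 2 or 3 or labelled WT replicate 2 or 3, 4 with no low-count filter, 5 with the offsets and 1 with DESeq2.

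Between receptor and Ras, 4 of 17 adaptor, exchange factor and Ras genes rose and 0 fell (median 0.11), among them the docking protein gene GAB2 (1.37-fold) and the Ras family gene MRAS (1.34-fold). Without labelled knockdown replicate 1 there were 6 higher and 4 lower, without labelled knockdown replicate 2 only 2 were higher, and 1 was lower without labelled WT replicate 1 or with no low-count filter and 2 with the offsets. Of 17 Raf, MEK and ERK genes and kinases they activate 0 rose and 2 fell (median 0.0059). For these kinases the counts were 3 higher and 4 lower without labelled knockdown replicate 1 and 1 higher and 1 lower without labelled WT replicate 1. They were 0 and 0 without any other library, 1 higher and 4 lower with the offsets, 0 higher and 1 lower with DESeq2, and 1 was higher with no low-count filter. MAPK3, which encodes an ERK kinase, did not pass, at 0.07 on the log2 scale (95% interval -0.10 to 0.24, edgeR adjusted p = 0.588). Of 19 genes of the JNK and p38 cascade, on which DUSP10 acts, 2 rose and 1 fell (median -0.04). MAP3K11 rose 1.26-fold and MAP3K5, a stress-activated kinase gene, fell 1.33-fold. Of this cascade 1 was higher without labelled knockdown replicate 2 or 3 or labelled WT replicate 2 or 3, and 3 were lower with the offsets.

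Other inhibitors of the pathway were also split. Of 17 Ras GTPase activators and other inhibitors 4 rose and 5 fell (median 0.04). The Ras GTPase activator genes RASAL1 and RASAL2 rose 1.99-fold and 1.38-fold, and PEBP1, which encodes a Raf kinase inhibitor, fell 1.26-fold. In the rest of the MAP kinase phosphatase, SPRY and SPRED families 1 of 6 tested genes rose and 1 fell (median -0.01). DUSP9, an ERK phosphatase gene, fell 2.08-fold, to 1.54 ± 0.498 CPM in the libraries labelled TRIM25 knockdown against 3.25 ± 0.374 CPM in those labelled WT (SD, n = 3 each). Of 10 atypical dual-specificity phosphatase genes 0 rose and 1 fell (median -0.07). The Ras GTPase activator list had 2 higher without labelled knockdown replicate 2 or 3 or labelled WT replicate 2 or 3, and its lower calls were then 2 without labelled knockdown replicate 2 and 3 without each of the others. With DESeq2 this list had 2 higher and 2 lower, and with the offsets 2 higher. The family gene called higher was lost in every fit without 1 library but that without labelled knockdown replicate 1, and also with DESeq2, with the offsets and with no low-count filter. The atypical genes had 2 lower without labelled knockdown replicate 1, 0 lower without labelled knockdown replicate 2, labelled WT replicate 1 or 3 or with DESeq2, and 1 higher with the offsets.

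Genes that ERK signalling is known to induce, here the ERK output and immediate early genes, were also split. Of 10 ERK output genes 3 rose and 1 fell (median 0.05): the cyclin gene CCND1 rose 1.44-fold and MAFF, a small Maf factor gene, 1.23-fold. The ETS factor genes ETV1, ETV4 and ETV5, often read as ERK output together with DUSP6 and SPRY4, had log2 fold changes of 0.03, -0.02 and -0.12 and did not pass. Of 25 immediate early genes 4 rose and 7 fell (median -0.19). The transcription factor gene EGR1 fell 1.72-fold, while the AP-1 subunit gene FOSL1 rose 1.37-fold and CCN1, a matricellular gene, 1.87-fold. Named after their values were seen, EGR2 and ZFP36 fell 1.44-fold and 1.66-fold and EGR3 rose 1.36-fold. The ERK-responsive transcription factor genes are a separate list and are not counted here among the genes that ERK induces. Of these 8 genes 2 rose and 0 fell (median 0.14). Immediate early genes called lower numbered 12 without labelled knockdown replicate 1 and with the offsets, 3 without labelled knockdown replicate 2, and 4 without labelled knockdown replicate 3 or labelled WT replicate 3. The ERK output gene called lower was lost without labelled knockdown replicate 2 or labelled WT replicate 2, and 3 were lower with the offsets. The ERK-responsive factors had 4 higher and 1 lower without labelled knockdown replicate 1, 0 higher without labelled knockdown replicate 2 or labelled WT replicate 2 or 3, and 1 lower with the offsets.

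**Figure D5:**
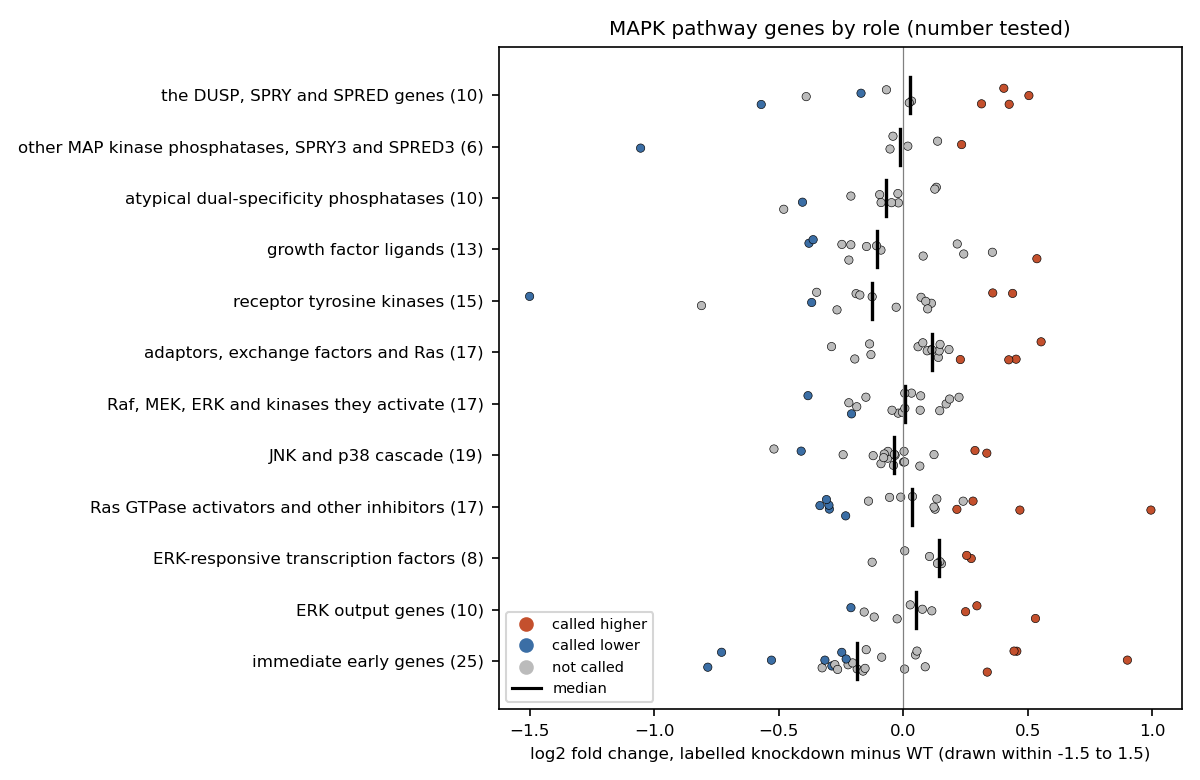
Log2 fold change (labelled TRIM25 knockdown minus labelled WT) of each tested gene, in rows by its role in the pathway, coloured by call, with the list median as a bar and values beyond -1.5 drawn at -1.5. Called genes stand on both sides of 0 in most rows, and the immediate early genes have the lowest median, -0.19.

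Finally, the genes whose profile over the 6 libraries was most like those of the 3 members with the smallest p were found by the root mean square difference of log2 CPM, each gene centred on its own mean. SPRY2 was nearest to CA8 (0.034) and LONRF1 (0.035), DUSP10 to C2CD2 (0.025) and SLC5A6 (0.026), and SPRED2 to C12orf4 (0.015) and THBS2 (0.016). Since many genes differ between the groups by a similar amount, this likeness is a description of 6 libraries only.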

How the data were processed

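Total RNA of LN229 cells was made into libraries with a stranded kit, per the labels' protocols, and the genotype label gave the groups and the titles the library numbers. Build hg19 and the tools HISAT2, Trim Galore, FastQC and MultiQC are named, without versions, per the submitters' processing notes. Which program counted the reads, with which strand setting and annotation, is not given in the sources used here. The authors' counts are raw whole-number reads per gene and library, per the file headers. The authors' FPKM, per the file headers, equals the count over a whole gene length (within 0.001 bp for all 21754 genes with a count) and the library total, and served only to recover lengths. The authors' TPM, per the file headers, rescales it to a fixed sum and was used to compare genes.

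Counts were fitted in R 4.3.3 with edgeR 4.0.16 (filterByExpr, TMM, glmQLFit, glmQLFTest) over 14315 genes, which held 99.9% of counts, with group as the only term. The log2 fold change is labelled TRIM25 knockdown minus WT, its SE is its size over the square root of F, and the 95% interval uses the total degrees of freedom. Alternatives were DESeq2 1.42.0 size factors and Wald test, limma 3.58.1 voom, no low-count filter, the replicate block, length and GC offsets (loess; GC from GENCODE v29 for 95.3% of tested genes) and each library left out. The fit was tested on simulated data. No library was a copy of another in its group (chi-square over its degrees of freedom 1.95 to 8.54). The 10 genes and the lists were chosen with earlier results of these data known. The rule for named genes took the 10 genes, TRIM25, up to 3 called genes per list with the smallest adjusted p and at least 1 as mean log2 CPM, and the 2 genes nearest in profile to 3 of the 10. Outside this rule, NF1, MAPK3, ETV1, ETV4 and ETV5 were named though not called. MERTK, EGR2, EGR3 and ZFP36 were also named outside it. Of 45 called list genes outside the 10, 22 were not called in every fit that left out a library; these stand in counts only, a step added after this was seen.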

Additional observations from a re-analysis of the deposited data

How the results depend on the processing

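TRIM25 and the calls of SPRY2, DUSP10, SPRED2 and DUSP1 held under all 13 alternatives. The number of the 10 genes called higher was 3 or 4 throughout, and 3 with the replicate block and with DESeq2, where DUSP5 was not called. The number called lower was 1 with the replicate block, with DESeq2 and with no low-count filter, because DUSP6 was not called, and 4 with length and GC offsets, also combined with the replicate block, because SPRY1 and SPRED1 were called as well. Without 1 library the number called lower ranged from 1 to 3, and was 3 without labelled knockdown replicate 1, where SPRY1 was called as well. DUSP4 turned to a log2 fold change of -0.029 with the length and GC offsets, and to -0.029 when these were combined with the block. SPRED1 ranged from -0.12 to 0.019 over the fits without 1 library and turned positive without labelled knockdown replicate 1. None of these values was called.

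Over all genes, 3330 were called, 1753 higher and 1577 lower; the replicate block left 1891, 967 higher and 924 lower, and the length and GC offsets raised the lower calls to 2384, beside 2178 higher. Without 1 library the number called ranged from 1826 to 4941, the higher calls from 930 to 2622 and the lower calls from 866 to 2319, with the most without labelled knockdown replicate 1. Deviations from the group means correlated at -0.19, 0.0082 and -0.22 between same-numbered libraries, and at up to 0.22 between differently numbered ones. Since the deviations also followed gene length, these correlations cannot decide whether same-numbered libraries were prepared together. Under the block the log2 fold changes of DUSP5 and DUSP6 were 0.40 and -0.17, as without it. Their edgeR adjusted p was then 0.0615 and 0.141. With the block, immediate early genes called lower numbered 3 and Ras GTPase activators and other inhibitors 2 higher and 2 lower. It left 0 ERK-responsive factors higher, 0 ERK output genes lower and 0 of the other phosphatase, SPRY and SPRED family genes higher. Genes called lower numbered 1 among receptors and 1 among Raf, MEK, ERK and the kinases they activate. Those called higher numbered 1 in the JNK and p38 cascade and 3 among adaptor, exchange factor and Ras genes. Depth limits SPRY1, DUSP1 and DUSP5, whose counts per library were between 52 and 186.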
